A study of Mus musculus with 12 samples.

Results

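The genes described here encode the general protein-folding machinery of the mouse oocyte, namely the Hsp70 chaperones with their J-domain partners and Hsp110 exchange factors, the cytosolic Hsp90 pair, the cytosolic chaperonin TRiC and the mitochondrial chaperonin. They were taken by symbol, as all Dnaja, Dnajb, Dnajc, Hspa and Cct genes with a number, with Tcp1, Hsph1, Hsp90aa1, Hsp90ab1, Hspd1 and Hspe1, while the ER chaperones Hspa5 and Dnajb9 and the mitochondrial Hspa9 were left out. This gave 70 of the 24255 genes in the table. A symbol does not fix a compartment, and the 70 genes also hold 9 J-domain genes of the endoplasmic reticulum (ER), 7 of mitochondria, the ER-lumen Hsp70 Hspa13 and the mitochondrial pair Hspd1 and Hspe1. Of the 70, 55 reached 1 FPKM in 1 library or more and entered the test across all genes. Another 8 were above 0 but under 1 FPKM throughout, and 7 were listed at 0 in all libraries (Cct8l1, Dnajb5, Dnajb7, Dnajb8, Dnajc12, Dnajc22 and Hspa12b).

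The study asked how germinal vesicle (GV) stage oocytes respond when Dpagt1, the enzyme that starts N-glycan synthesis in the ER, is impaired. RNA-Seq was done on 12 libraries of 20 GV oocytes each, taken 46 h after 5 IU of PMSG from C57BL/6 females aged 3 weeks, with 3 libraries in each of 4 groups. WT females carried no change, MUT females the ENU-induced D166G missense mutation of Dpagt1 in every cell, GcKO females the genotype Dpagt1F/F Gdf9CRE/+, in which the Gdf9 promoter drives Cre in oocytes, and AmcKO females Dpagt1F/F Amhr2CRE/+, in which the Amhr2 promoter drives Cre in granulosa cells, so that the AmcKO oocyte itself keeps the gene. The WT females are not described as carrying a floxed allele or a Cre. The labels number the WT and AmcKO libraries 4 to 6 and the MUT and GcKO libraries 1 to 3. In any comparison of MUT or GcKO with WT or AmcKO, genotype therefore cannot be told apart from whatever this numbering stands for. Each library pooled oocytes, and the labels do not say whether the 3 libraries of a group came from separate females, so the p-values measure the spread between these libraries, which may be technical. FPKM is the number of fragments per kilobase of transcript and per mapped fragments of the library, as the authors scaled it, and it holds no counts, so the depth behind a value is unknown. In such pooled oocytes, fewer oocytes of a kind and less RNA per oocyte cannot be told apart.

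Hsp70 proteins bind short unfolded stretches of other proteins in a cycle of ATP binding and hydrolysis. J-domain proteins (Hsp40) bring the clients and switch on the hydrolysis, and Hsp110 proteins exchange the nucleotide to release the client. Hsp90 takes over clients such as kinases and steroid receptors at a late step, with co-chaperones such as p23. TRiC is a double ring that folds actin and tubulin, which prefoldin hands to it, and Hspd1 with its lid Hspe1 forms the mitochondrial counterpart. Fully grown GV oocytes transcribe little and live on stored mRNA. The inducible genes of the family are switched on by heat shock factors, which bind inverted repeats of nGAAn, the heat shock element, whereas the ER members answer to the unfolded protein response.

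The promoters shown here are those that hold a heat shock element of 3 units, with those of Dnajb4, which holds 1 short match, and Dnajb1, which holds none, since the levels of both are described in detail below. RefSeq promoter windows of GRCm38.p6, from 250 bases before to 50 bases after a start site, were at hand for 57 of the 70 genes, in 75 windows. Hsp90aa1, Hsp90ab1 and Hspa8 were among the genes without a window, so nothing is known here of their promoters. The inverted repeat GAANNTTC or TTCNNGAA, searched on both strands with overlapping matches allowed, was found in 16 of these 57 genes and in 18 of the 75 windows (24%), against 15.1% of all 32851 promoter windows. The repeat of 3 units, GAANNTTCNNGAA or TTCNNGAANNTTC, was found in 6 of the 75 windows (8%), against 0.603% of all windows. These 6 windows belong to 4 genes, Hspd1, Hspe1, Hsph1 and Dnajb6. The windows of Hspd1 and Hspe1 overlap, as do the 2 of Hsph1 and the 2 of Dnajb6. Overlapping windows hold the same matches, so the 6 windows are not 6 separate elements. CCAAT, on either strand, was in 41.3% of member windows and 37.4% of all windows. The sequences below run 5′ to 3′ along the gene's strand, and capitals mark GAANNTTC or TTCNNGAA. The interval between the divergent start sites of Hspd1 and Hspe1 (chr1:55087932-55088148, forward strand) holds 3 overlapping matches, the window of Hsph1 (chr5:149636266-149636465, reverse strand) 3, that of Dnajb6 (chr5:29735748-29735947, forward strand) 2, and 1 of the 2 windows of Dnajb4 (chr3:152193796-152193995, reverse strand) 1. The window of Dnajb1 (chr8:83608025-83608224, forward strand) holds none of these letters. Apart from the interval, each is printed from 150 bases before to 49 bases after the first base of the transcript.
Hspd1-Hspe1: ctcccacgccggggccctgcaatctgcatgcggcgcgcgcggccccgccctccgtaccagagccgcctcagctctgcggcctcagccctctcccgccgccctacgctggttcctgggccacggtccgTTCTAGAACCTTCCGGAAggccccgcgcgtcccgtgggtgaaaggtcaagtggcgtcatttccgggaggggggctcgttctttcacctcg
Hsph1: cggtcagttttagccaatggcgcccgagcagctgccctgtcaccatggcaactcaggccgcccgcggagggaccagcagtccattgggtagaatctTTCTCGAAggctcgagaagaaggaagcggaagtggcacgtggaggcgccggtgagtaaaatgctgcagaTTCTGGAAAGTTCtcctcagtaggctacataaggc
Dnajb6: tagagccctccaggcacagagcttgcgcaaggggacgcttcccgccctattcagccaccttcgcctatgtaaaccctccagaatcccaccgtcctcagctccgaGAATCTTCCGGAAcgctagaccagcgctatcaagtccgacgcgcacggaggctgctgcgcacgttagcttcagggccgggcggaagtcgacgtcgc
Dnajb4: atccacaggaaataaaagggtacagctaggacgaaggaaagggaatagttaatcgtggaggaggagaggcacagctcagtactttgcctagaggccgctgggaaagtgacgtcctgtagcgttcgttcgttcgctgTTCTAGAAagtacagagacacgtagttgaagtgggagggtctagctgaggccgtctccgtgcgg
Dnajb1: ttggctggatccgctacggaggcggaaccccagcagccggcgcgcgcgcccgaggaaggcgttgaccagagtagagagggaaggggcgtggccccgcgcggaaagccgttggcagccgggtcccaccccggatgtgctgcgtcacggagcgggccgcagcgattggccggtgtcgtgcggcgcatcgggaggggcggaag
A match is a description of the letters, and binding was not measured.

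In all groups the folding machinery of the oocyte was dominated by 4 transcripts. Hsp90aa1, the heat-inducible cytosolic Hsp90, had the highest mean over the 12 libraries (895 FPKM), followed by Dnajb4, a cytosolic class B J-protein (655 FPKM), Dnajb6, a J-protein that keeps aggregation-prone proteins soluble (271 FPKM), and Hspe1, the lid of the mitochondrial chaperonin (243 FPKM). Together they made up 71.6 to 73.1% of the summed FPKM of all 70 genes in WT libraries, against 61.0 to 62.0% for MUT, 60.7 to 65.1% for GcKO and 67.5 to 70.4% for AmcKO libraries. The MUT and GcKO ranges lay below those of WT and AmcKO. Another 2 members, Dnajc8 and Dnajc15, averaged at least 100 FPKM, 22 of the tested members averaged 10 to 100 FPKM, 22 averaged 1 to 10 FPKM and 5 less than 1 FPKM. Hspa8, the constitutive Hsp70 of the cytosol, stood at 97.5 FPKM, while the heat-inducible Hspa1a and Hspa1b were listed at 0 in all WT, GcKO and AmcKO libraries. The same gene family thus ran from 0 to 1265 FPKM in one cell type, and the relation within pairs was uneven. WT oocytes held 69.3 to 163 times as much Hsp90aa1 as Hsp90ab1 and 14.6 to 59.6 times as much Hspe1 as Hspd1 on the FPKM scale.

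**Figure D1:**
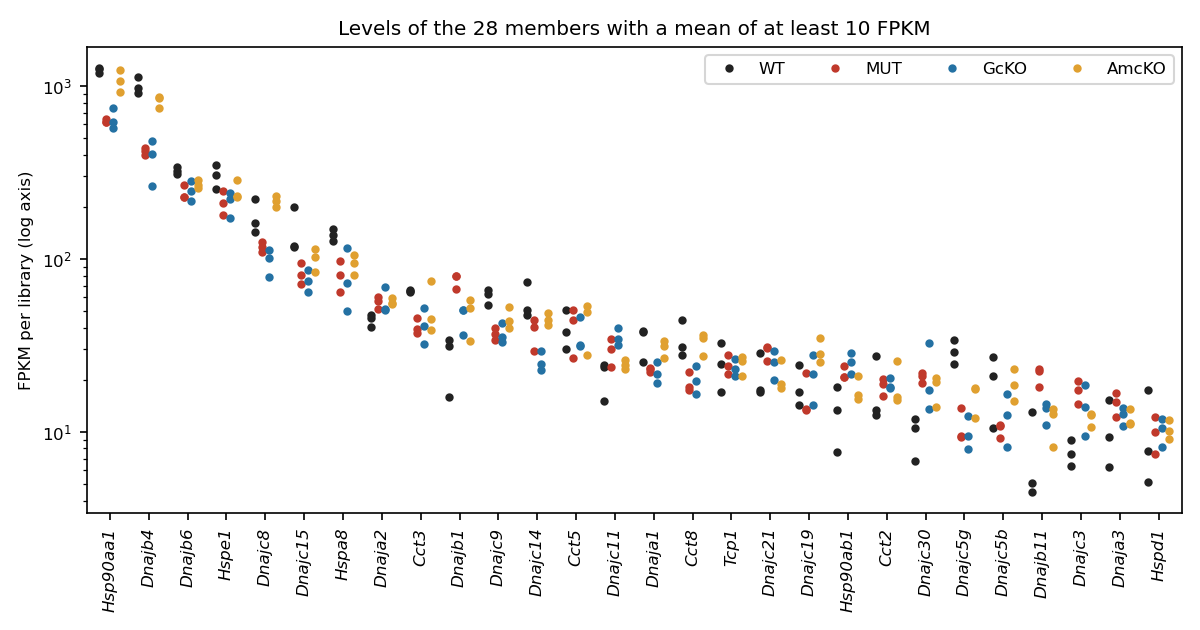
FPKM of the 28 members with a mean of at least 10 FPKM, on a log axis, with 1 point per library (3 per group) and genes ordered by their mean over the 12 libraries. Hsp90aa1 and Dnajb4 stand above all others, and their MUT and GcKO points lie below all WT and AmcKO points.

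Some of these levels carry a limit of mapping. Of the 50-base stretches of the annotated transcripts, 47.5% of those of Hsp90aa1, 42.1% of Hspd1, 39.4% of Hspa8, 22.8% of Hspe1 and 21.0% of Dnajb6 also occur in another annotated gene, and 66.3% of those of Hspa1a occur elsewhere, chiefly in Hspa1b. Dnajc30 shares 24.3% with 2 other genes, the most with Bud23, and Dnajc14 19.2% with 130 other genes, the most with Ormdl2. The values of these genes are uncertain to that extent, whereas Dnajb4, Dnajc3 and Hsph1 share none and Dnajb1 0.412%. The span of a gene in the file also exceeded the annotated gene by a factor of 7.47 for Dnajc30, 3.26 for Cct8, 2.57 for Tcp1, 2.52 for Dnaja1, 2.42 for Dnajc19, 1.91 for Dnajb11 and 1.71 for Dnajc1, so that the FPKM of these genes may refer to a merged locus, and it was 0.442 times the annotated gene for Hsp90aa1 and 0.432 times for Hspa8.

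Libraries differed in their FPKM sum, which was at least 1167362 in the WT libraries but 482314 to 684212 in the GcKO, 589617 to 611597 in the MUT and 883256 to 1107925 in the AmcKO libraries. Genes at 5000 FPKM or more made up 42.4 to 44.7% of the sum in WT and 32.7 to 41.7% in AmcKO libraries. Their share was 18.1 to 18.8% in MUT and 13.7 to 22.1% in GcKO libraries. The deposited values were already close to a median-of-ratios scaling, with factors of 0.990 to 1.01. Setting all libraries to the same FPKM sum moved the median log2 fold change over all tested genes from 0.12 to 0.70 in MUT and from 0.12 to 0.73 in GcKO against WT, and with it the direction of many members. For that reason the values below are differences on log2(FPKM + 1) as deposited, with the value at the same sum for the members named whose direction or call changed. The targeted gene Dpagt1 did not enter the test, being listed at 0 in all WT and AmcKO libraries, at 0.878, 0.408 and 0.985 FPKM in MUT and at 0, 0.366 and 0 FPKM in GcKO. An exact 0 in such a file can be a failed estimate, and the widely used co-chaperones Unc45a and Hspbp1 were listed at 0 in all 12 libraries as well, so these values do not check the deletion.

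On the deposited scale, several abundant members fell and a smaller group of mid-level members rose against WT in both MUT and GcKO, whereas with all libraries set to the same FPKM sum nearly all calls were rises, and no member was called in AmcKO. In MUT, 10 of the 55 tested members were called lower (18.2%, against 11.3% of all 11233 tested genes) and 5 higher (9.09%, against 9.46%), with limma at an adjusted p under 0.05. In GcKO, 9 were called lower (16.4%, against 11.4% of all genes) and 5 higher (9.09%, against 8.71%). The shares of members called were thus near those of all genes. The lower members had a median level of 98.9 FPKM in MUT and 97.5 FPKM in GcKO, the higher ones of 13.3 and 17.4 FPKM, and those not called of 4.74 and 4.68 FPKM. Of all 4759 genes that averaged at least 5 FPKM, 1362 were called lower and 760 higher in MUT, and 1397 and 705 in GcKO. More falls than rises among the more abundant genes are thus not particular to the members. Called or not, 14 of the 55 tested members had 3 values below the range of the 3 WT values in MUT (25.5%, against 16.9% of all genes) and 11 had 3 above it (20%, against 20.2%), and the same numbers of members did in GcKO (all genes 16% and 18.2%). The median over the 55 members was 0.02 in MUT and 0.13 in GcKO, beside 0.12 over all genes in both. With the same FPKM sum, the split was 0 lower and 25 higher in MUT (all genes 2.25% and 41.3%) and 1 lower and 28 higher in GcKO (all genes 2.15% and 42.5%), and with quantile normalization it was 3 lower and 5 higher in both (all genes 6.41% and 6.7% in MUT, 5.92% and 6.15% in GcKO).

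Both models were set against the same 3 WT libraries, so their calls are not independent. The 8 members called lower in both were Hsp90aa1, Hspa8, Dnajb4, Dnajc5g, Dnajc8, Dnajc9, Dnajc15 and Cct8, which is 80% of the MUT list and 88.9% of the GcKO list, and all of them but Dnajb4 and Dnajc5g stood above 0 at the same FPKM sum in both models. The members called higher in both were 2, Dnajc3 and Dnajc30, or 40% of each list. The overlap over all tested genes was not computed here. The paper reports, by another test, that most of all transcripts lowered in MUT oocytes were also lowered in GcKO. The overlap is thus not shown to be particular to the members. GcKO and MUT differed from each other at an adjusted p under 0.05 in none of the 55 members with limma (all genes 0.205%). An unadjusted p under 0.05 was found for 3 members and for 741 of all 11233 genes. A member called in 1 of the models is therefore not shown to differ between them.

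**Figure D2:**
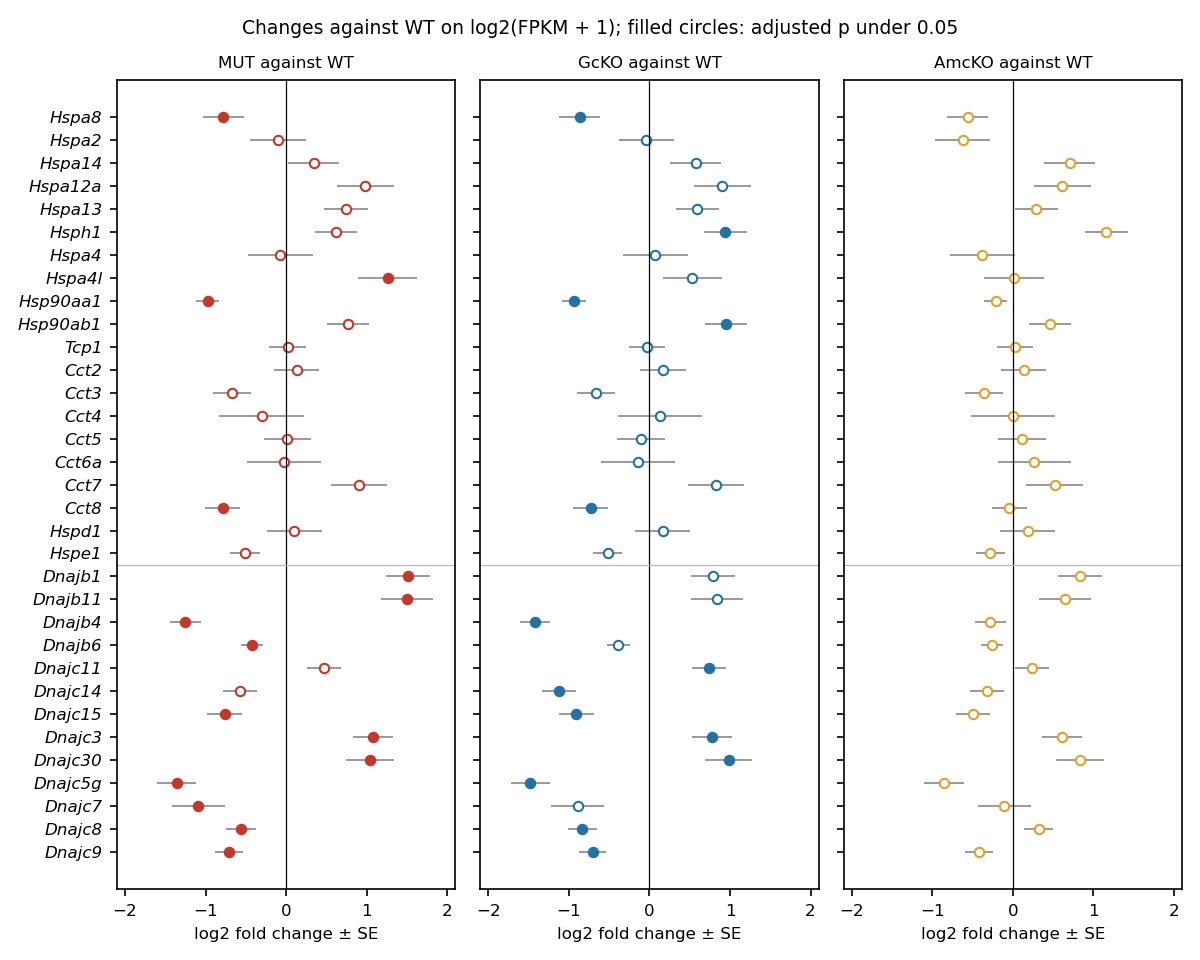
Log2 fold change with its standard error, on log2(FPKM + 1) as deposited, of the tested Hsp70, Hsp110, Hsp90 and chaperonin genes (above the line) and of the J-domain genes called in any comparison (below it), for MUT, GcKO and AmcKO against WT. Filled circles have an adjusted p under 0.05 in limma. There are 15 called members in MUT, 14 in GcKO and 0 in AmcKO.

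The Hsp90 genes went apart. Hsp90aa1 was at 1248, 1190 and 1265 FPKM in WT, at 622, 645 and 620 in MUT, at 621, 574 and 746 in GcKO and at 1063, 1230 and 922 in AmcKO. All MUT and GcKO values lay below all WT and AmcKO values, and AmcKO overlapped WT. The log2 fold change was -0.97 ± 0.14 (SE) in MUT (adjusted p = 0.00048, limma) and -0.94 ± 0.14 in GcKO (adjusted p = 0.000597), called in 6 of 6 fits that left out 1 library, but 0.02 and 0.10 with the same FPKM sum, where it was not called. With quantile normalization Hsp90aa1 was not called in either model. Hsp90ab1, the constitutive partner, was at 7.66, 13.4 and 18.2 FPKM in WT, 24.1, 20.8 and 20.8 in MUT, 25.2, 21.7 and 28.5 in GcKO and 20.9, 16.4 and 15.5 in AmcKO. Every MUT and GcKO value exceeded every WT value, with the lowest WT value in replicate 4. It rose by 0.96 ± 0.26 in GcKO (adjusted p = 0.0187, limma), under all 4 scalings tried, and stood at 0.77 ± 0.26 in MUT (adjusted p = 0.0503), where it was called at the same FPKM sum (1.70, adjusted p = 0.00044). The call in GcKO was lost without WT replicate 4, GcKO replicate 1 or GcKO replicate 3.

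The ratio of the Hsp90 genes within a library does not depend on any scaling by a common factor. Hsp90aa1 was 163, 88.8 and 69.3 times as high as Hsp90ab1 in WT, 25.8, 31.0 and 29.7 times in MUT, 24.7, 26.5 and 26.2 times in GcKO and 50.9, 75.0 and 59.6 times in AmcKO. The MUT and GcKO ratios lay below all others, and AmcKO overlapped WT. The ratio was chosen after the values had been seen and is given as a description.

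**Figure D3:**
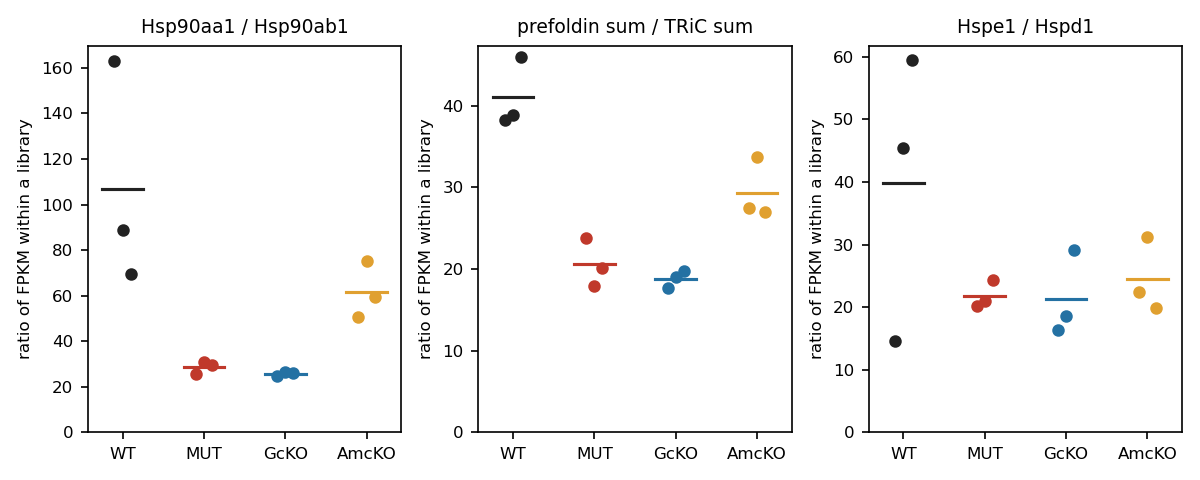
Ratios of FPKM values within a library, with 1 point per library and a bar at the group mean (n = 3). Hsp90aa1 over Hsp90ab1 is 69.3 to 163 in WT against 24.7 to 31.0 in MUT and GcKO, prefoldin over TRiC is 38.2 to 46 in WT against 17.7 to 23.8, and Hspe1 over Hspd1 overlaps between all groups. Pfdn4 makes up most of the prefoldin sum.

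Among the Hsp70 genes the constitutive Hspa8 was lower on the deposited scale, though not at the same FPKM sum, and none was called higher on the deposited scale, while Hspa12a and Hspa14 were called higher in both models at the same sum. Hspa8 was at 149, 126 and 138 FPKM in WT, 81.1, 96.6 and 64.1 in MUT, 49.9, 72.5 and 115 in GcKO and 105, 94.0 and 80.1 in AmcKO. No MUT, GcKO or AmcKO value reached the lowest WT value, and the GcKO libraries spread widely. Its log2 fold change was -0.78 ± 0.25 in MUT (adjusted p = 0.0412, limma) and -0.87 ± 0.25 in GcKO (adjusted p = 0.0253), and 0.21 and 0.16 with the same FPKM sum. With quantile normalization Hspa8 was not called in either model. The call in MUT was lost in all 6 fits that left out 1 library, with values from -0.92 to -0.63, and that in GcKO was lost in 5 of 6, all but the one without GcKO replicate 3, with values from -1.18 to -0.58. Hspa8 lies on chromosome 9, 3515932 bases from Dpagt1.

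The other Hsp70 genes were low. Hspa12a, a divergent family member, was at 0.286, 0 and 1.11 FPKM in WT and at 1.58, 2.30 and 1.47 in MUT (log2 fold change 0.98 ± 0.35, adjusted p = 0.0652, limma). Hspa13, the ER-lumen member, was at 0.801 to 0.932 FPKM in WT and 2.09 to 2.12 in MUT (0.74 ± 0.27, adjusted p = 0.0658), so the values did not overlap but the call was missed. Hspa12a stood at 1.39 in MUT and 1.33 in GcKO, Hspa13 at 1.28 and 1.14 and Hspa14 at 1.07 and 1.35 with the same FPKM sum, all called higher. Hspa14, which works on the ribosome with Dnajc2, had log2 fold changes of 0.34 and 0.57 and Hspa2, best known from male germ cells, of -0.10 and -0.04 in MUT and GcKO, each within about 2 standard errors of 0, with Hspa2 at 0.59 and 0.68 without a call at the same sum. The heat-inducible Hspa1b was listed at 0 in WT and at 0.284, 0.262 and 0.635 FPKM in MUT, and Hspa1a was listed at 0, 0.264 and 0.638 in MUT. A two-sided exact permutation test gave p = 0.1 for Hspa1b, the smallest p that 3 against 3 libraries allow, and p = 0.4 for Hspa1a. The other 6 members under 1 FPKM (Cct6b, Dnajb13, Dnajc6, Dnajc16, Dnajc27 and Hspa1l) had exact p-values from 0.1 to 1 against WT, the lowest for Dnajc16 in GcKO, at 0.492 to 0.703 FPKM against 0. Hspa1a and Hspa1b are near-identical and the MUT libraries also held more genes above 0 (11208 to 11467) than the WT libraries (9359 to 9622).

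The Hsp110 exchange factors gave no lower call (all genes 11.3% in MUT and 11.4% in GcKO), and 1 of 3 was called higher in each model on the deposited scale (all genes 9.46% and 8.71%). At the same FPKM sum 2 of 3 were called higher, Hsph1 and Hspa4l (all genes 41.3% and 42.5%). Hsph1 was at 5.34, 7.14 and 4.24 FPKM in WT, 6.70, 9.49 and 11.2 in MUT, 15.1, 8.56 and 11.5 in GcKO and 12.7, 13.4 and 14.3 in AmcKO. All GcKO and AmcKO values exceeded the WT values, while the lowest MUT value lay among them. It rose by 0.94 ± 0.26 in GcKO (adjusted p = 0.0218, limma), which was lost in 3 of 6 fits without 1 library and was 0.81 (adjusted p = 0.0658) with quantile normalization. In AmcKO the value was 1.16 ± 0.26, at an unadjusted p of 0.000649 and an adjusted p of 0.0861, and in MUT 0.62 ± 0.26 (adjusted p = 0.112), or 1.47 at the same sum, where it was called. Hspa4l rose in MUT, from 2.37, 1.07 and 1.84 FPKM in WT to 5.45, 4.63 and 6.58 (1.26 ± 0.37, adjusted p = 0.026, limma), and this call held in 1 of 6 fits without 1 library and under the deposited, median-of-ratios and same-sum scalings. In GcKO Hspa4l stood at 0.53 (adjusted p = 0.335), and at 1.22 with a call at the same sum. Hspa4 lay between 3.21 and 5.89 FPKM in WT and between 3.78 and 6.05 FPKM in MUT libraries, and its log2 fold changes were -0.07 ± 0.40 and 0.07 ± 0.40 in MUT and GcKO, and 0.74 and 0.93 without a call at the same sum.

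Of the 44 J-domain genes, 35 were tested, with 7 lower and 4 higher in MUT (all genes 11.3% and 9.46%) and 6 lower and 3 higher in GcKO (all genes 11.4% and 8.71%). With the same FPKM sum, 0 were lower and 13 higher in MUT (all genes 2.25% and 41.3%) and 1 lower and 16 higher in GcKO (all genes 2.15% and 42.5%). Dnajb4 showed the greatest change in FPKM. It was at 1121, 971 and 907 FPKM in WT, 436, 396 and 422 in MUT, 262, 404 and 481 in GcKO and 854, 861 and 745 in AmcKO. The highest MUT or GcKO value was 481 and the lowest WT or AmcKO value 745. Dnajb4 fell by 1.25 ± 0.19 in MUT (adjusted p = 0.00057, limma) and by 1.42 ± 0.19 in GcKO (adjusted p = 0.000249) in every fit without 1 library. The direction was kept under all scalings, and with the same FPKM sum the value was -0.26 in MUT (adjusted p = 0.091) and -0.39 in GcKO (adjusted p = 0.016). Less the median of all genes under that scaling, which reverses part of the rescaling, these are -0.96 and -1.11, given as a description.

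Dnajb1, the heat-inducible Hsp40 of the cytosol, went the other way. It was at 31.4, 33.7 and 16.0 FPKM in WT, 67.2, 80.0 and 79.7 in MUT, 50.9, 50.6 and 36.1 in GcKO and 52.1, 33.6 and 57.6 in AmcKO. MUT values were above those of all other groups. It rose by 1.52 ± 0.27 in MUT (adjusted p = 0.00171, limma), under all 4 scalings and in 6 of 6 fits without 1 library, and stood at 0.79 ± 0.27 in GcKO (adjusted p = 0.0561; 1.80 with a call at the same sum) and 0.83 ± 0.27 in AmcKO (adjusted p = 0.184). Dnajb6 was at 340, 322 and 308 FPKM in WT and at 229, 227 and 267 in MUT, a log2 fold change of -0.42 ± 0.14 (adjusted p = 0.0454, limma) that became 0.57 (called higher) with the same FPKM sum and 0.32 with quantile normalization, and that held in 1 of 6 fits without 1 library. Dnajc7, which passes clients between Hsp70 and Hsp90, was at 9.90, 16.4 and 6.65 FPKM in WT and 3.86, 5.85 and 3.54 in MUT (-1.09 ± 0.33, adjusted p = 0.031, limma), lower under the deposited, median-of-ratios and quantile scalings and -0.23 without a call at the same sum.

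**Figure D4:**
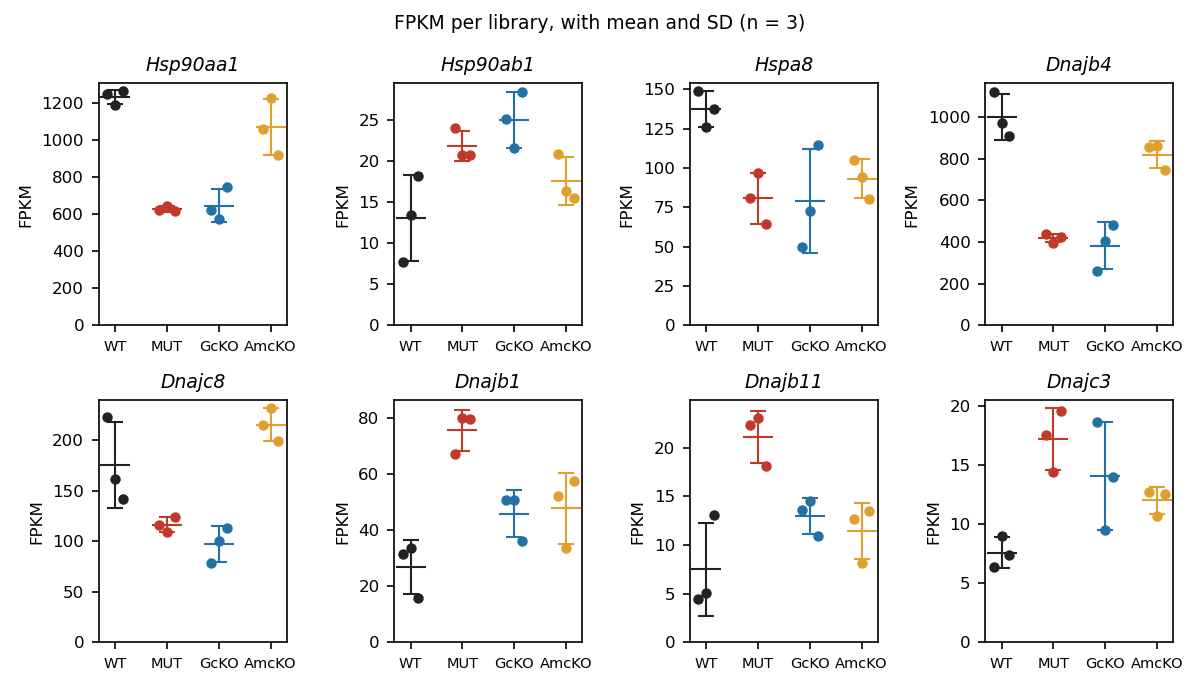
FPKM of 8 members in each library (points), with the mean and SD of each group (n = 3), on axes that start at 0. Hsp90aa1 and Dnajb4 are low in MUT and GcKO, Dnajc8 is high in WT and AmcKO, Dnajb1 and Dnajb11 are highest in MUT, and the other panels overlap between at least some groups.

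Of the 9 ER J-domain genes, 8 were tested, and Dnajb11 and Dnajc3 rose and none fell in MUT (all genes 9.46% and 11.3%), while Dnajc3 rose and Dnajc14 fell in GcKO (all genes 8.71% and 11.4%). With all libraries at the same FPKM sum, 3 were higher in MUT and 4 in GcKO, and none was lower (all genes 41.3% and 42.5% higher), with Dnajc10 added in both and Dnajb11 and Dnajc1 in GcKO. Dnajb11 and Dnajc3 are partners of the ER Hsp70 BiP and targets of the unfolded protein response. Other targets of this response, BiP itself (Hspa5) and Dnajb9, which are no members, had log2 fold changes of 0.04 and -0.13 in MUT and 0.10 and -0.31 in GcKO without a call on the deposited scale. At the same sum these were 1.00 and 0.78 in MUT and 1.11 and 0.63 in GcKO, called but for Dnajb9 in GcKO. Dnajb11 was at 4.49, 5.08 and 13.1 FPKM in WT, 22.4, 23.0 and 18.1 in MUT, 13.6, 14.5 and 10.9 in GcKO and 12.6, 8.15 and 13.5 in AmcKO. MUT lay above all other groups, and GcKO overlapped WT through WT replicate 6. The rise in MUT was 1.5 ± 0.32 (adjusted p = 0.005, limma), under all 4 scalings and in 6 of 6 fits without 1 library, and GcKO was at 0.84 ± 0.32 (adjusted p = 0.0815; 1.76 with a call at the same sum). Dnajc3 was at 6.35, 8.98 and 7.41 FPKM in WT, 17.5, 14.4 and 19.6 in MUT, 18.6, 9.48 and 14 in GcKO and 12.7, 10.7 and 12.6 in AmcKO. All values of the 3 models exceeded the WT values. It rose by 1.08 ± 0.25 in MUT (adjusted p = 0.00737, limma), under all 4 scalings, and by 0.77 ± 0.25 in GcKO (adjusted p = 0.0411), where quantile normalization gave 0.69 (adjusted p = 0.097) and 4 of 6 fits without 1 library lost the call.

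Dnajc14, a membrane-bound protein, was the most abundant of the ER members (mean over the 12 libraries 41.3 FPKM) and fell in GcKO on the deposited scale. It was at 73.9, 47.4 and 50.5 FPKM in WT, 44.2, 29.3 and 40.1 in MUT, 22.6, 29.2 and 24.5 in GcKO and 48.5, 44.1 and 41.5 in AmcKO. The GcKO values were below all WT and AmcKO values. The fall was 1.12 ± 0.21 in GcKO (log2 fold change -1.12, adjusted p = 0.0021, limma) and -0.11 without a call at the same FPKM sum, while MUT stood at -0.58 ± 0.21 (adjusted p = 0.0671) and 0.40 at the same sum.

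Of the 7 mitochondrial J-domain genes, all tested, Dnajc15 fell on the deposited scale but not at the same FPKM sum, Dnajc30 rose in both models, and Dnajc11 rose in GcKO. This is 1 lower and 1 higher in MUT (all genes 11.3% and 9.46%) and 1 lower and 2 higher in GcKO (all genes 11.4% and 8.71%). At the same sum 0 were lower, with 4 higher in MUT and 5 in GcKO (all genes 41.3% and 42.5% higher). Dnajc15, of the inner membrane, was at 118, 198 and 117 FPKM in WT, 95.1, 80.7 and 71.8 in MUT, 73.9, 64.0 and 85.7 in GcKO and 102, 114 and 84.1 in AmcKO. MUT and GcKO did not overlap WT, in which replicate 5 was the highest. Its log2 fold change was -0.76 ± 0.21 in MUT (adjusted p = 0.0223, limma) and -0.91 ± 0.21 in GcKO (adjusted p = 0.00884), and 0.22 and 0.12 at the same FPKM sum. Dnajc30 was at 10.5, 11.9 and 6.79 FPKM in WT, 21.9, 19.0 and 21.1 in MUT and 17.3, 32.6 and 13.6 in GcKO, without overlap. It rose by 1.04 ± 0.30 and 0.98 ± 0.30 (adjusted p = 0.0231 and 0.0301, limma), and 1 of 6 and 2 of 6 fits without 1 library kept the call in MUT and GcKO. Dnajc11, part of the complex that shapes the cristae, was at 15.1, 23.7 and 24.3 FPKM in WT and 39.7, 31.7 and 34.2 in GcKO, a rise of 0.74 ± 0.21 (adjusted p = 0.0244, limma) under all 4 scalings that was lost without GcKO replicate 1 or WT replicate 4. In MUT it stood at 0.47 (adjusted p = 0.13), and at 1.43 with a call at the same sum.

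Of the 5 nuclear or ribosomal J-domain genes, 2 fell in both models on the deposited scale (all genes 11.3% in MUT and 11.4% in GcKO). None rose (all genes 9.46% and 8.71%), and none fell at the same FPKM sum (all genes 2.25% and 2.15%). Dnajc8, a spliceosome component, was at 223, 161 and 142 FPKM in WT, 116, 109 and 124 in MUT, 78.5, 100.4 and 113 in GcKO and 215, 232 and 199 in AmcKO. MUT and GcKO did not overlap WT or AmcKO, and AmcKO overlapped the highest WT library only. Its log2 fold change was -0.56 ± 0.18 in MUT (adjusted p = 0.045, limma), which turned to 0.43 (called higher) at the same FPKM sum and 0.01 with quantile normalization and held in 1 of 6 fits without 1 library, and -0.83 ± 0.18 in GcKO (adjusted p = 0.00602), which turned to 0.20 at the same sum. Dnajc9, a histone chaperone named here after its values had been seen, was at 53.9 to 66.1 FPKM in WT but 33.8 to 39.9 FPKM in MUT and 33.0 to 42.4 FPKM in GcKO (-0.71 ± 0.17 in both, adjusted p = 0.0101 and 0.0102, limma; 0.27 and 0.31 at the same sum).

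Among the trafficking members, of which 4 of 6 were tested, Dnajc5g fell in both models on the deposited scale (all genes 11.3% lower in MUT and 11.4% in GcKO). This cysteine string protein, of a family that escorts vesicle proteins, was at 28.9, 34.1 and 24.5 FPKM in WT, 9.46, 9.32 and 13.7 in MUT, 9.41, 7.89 and 12.4 in GcKO and 17.8, 17.6 and 11.9 in AmcKO. All values of the 3 models were below the WT values. The log2 fold change was -1.36 ± 0.24 in MUT (adjusted p = 0.00162, limma) and -1.48 ± 0.24 in GcKO (adjusted p = 0.000914), also called with quantile normalization and in 6 of 6 fits without 1 library, and -0.42 and -0.50 without a call at the same FPKM sum. In AmcKO it was -0.86 ± 0.24 at an unadjusted p of 0.0034 and an adjusted p of 0.143.

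The subunits of TRiC, which work in 1 ring in equal number, were not all called alike, and a difference between subunits was not tested. Of 9 listed and 8 tested, Cct8 was called lower in both models and no subunit higher on the deposited scale (all genes 11.3% lower and 9.46% higher in MUT, 11.4% and 8.71% in GcKO). At the same FPKM sum, 4 were higher and none lower in both models (all genes 41.3% and 2.25% in MUT, 42.5% and 2.15% in GcKO). Cct8 was at 30.9, 44.0 and 27.9 FPKM in WT, 18.1, 22.1 and 17.4 in MUT, 19.8, 16.6 and 23.8 in GcKO and 34.9, 36.3 and 27.4 in AmcKO. MUT and GcKO lay below WT and AmcKO. Its log2 fold change was -0.78 ± 0.22 in MUT (adjusted p = 0.0206, limma) and -0.73 ± 0.22 in GcKO (adjusted p = 0.0282), 0.17 and 0.27 at the same FPKM sum, and 3 of 6 fits without 1 library kept each call. With quantile normalization Cct8 was not called lower in either model. Cct3, the most abundant subunit, was at 64.6 to 66.3 FPKM in WT and 37.3 to 45.7 in MUT (-0.67 ± 0.23, adjusted p = 0.0573, limma; 0.31 at the same sum), and Cct7 at 0.753 to 3.57 FPKM in WT and 4.6 to 5.48 in MUT (0.91 ± 0.35, adjusted p = 0.0833). Tcp1, Cct2 and Cct5 had log2 fold changes between -0.10 and 0.17 in both models, with standard errors of 0.23 to 0.30. Cct7 stood at 1.62 and 1.57 in MUT and GcKO and Tcp1, Cct2 and Cct5 between 0.91 and 1.15 with the same FPKM sum, and these were the 4 called higher.

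The level also differed among subunits far beyond their equal number in the ring. Cct3 averaged 50.1 FPKM, Cct5 40.0, Cct8 26.6, Tcp1 24.3 and Cct2 18.5, whereas Cct7 averaged 4.01, Cct4 1.72 and Cct6a 0.507 FPKM, and Cct6b was above 0 in 1 library only. Cct4 and Cct6a were listed at 0 in 1 and 6 of the 12 libraries. For the mitochondrial chaperonin, Hspd1 was at 5.13 to 17.4 FPKM in WT and 7.40 to 12.2 in MUT (0.10 ± 0.34) and Hspe1 at 253 to 349 FPKM in WT but 180 to 247 FPKM in MUT and 172 to 239.9 FPKM in GcKO (-0.51 ± 0.18 and -0.52 ± 0.18, adjusted p = 0.0614 and 0.0585, limma). At the same FPKM sum Hspe1 stood at 0.48 and 0.52 and Hspd1 at 0.99 and 1.09 in MUT and GcKO, all called higher. The interval between their start sites is printed above.

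Genes that work with the members, and are no members themselves, were described from a list of 35 co-chaperones, of which 30 were tested, with 9 lower and 2 higher in each of MUT (all genes 11.3% and 9.46%) and GcKO (all genes 11.4% and 8.71%) and 0 in AmcKO (all genes 0.214%) on the deposited scale. At the same FPKM sum 4 were lower in both, with 14 higher in MUT (all genes 2.25% and 41.3%) and 13 in GcKO (all genes 2.15% and 42.5%). Prefoldin, which delivers actin and tubulin to TRiC, was called lower in 6 of 6 subunits in MUT and 5 of 6 in GcKO (median -1.12 and -0.99). At the same FPKM sum 2 were lower and 1 higher in both models, and with quantile normalization 2 were lower in MUT and 3 lower and 1 higher in GcKO. Vbp1, prefoldin subunit 3, was at 1183, 1054 and 1095 FPKM in WT, 349.7, 324 and 326 in MUT and 227, 295 and 429 in GcKO (log2 fold changes -1.73 ± 0.22 and -1.85 ± 0.22). Pfdn4 was at 4791 to 5803 FPKM in WT and 2021 to 2165 in MUT (-1.36 ± 0.17, and -1.58 ± 0.17 in GcKO). Both were also called lower at the same sum.

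As a sum over subunits, prefoldin was 38.2, 38.9 and 46 times as high as TRiC in WT, 23.8, 17.9 and 20.2 times in MUT, 17.7, 19.1 and 19.8 times in GcKO and 27.4, 33.7 and 26.9 times in AmcKO. All 9 libraries of the models lay below the WT libraries, and those of MUT and GcKO below AmcKO. Pfdn4 made up most of the prefoldin sum, with means of 5420 of 7622 FPKM in WT and 2106 of 3056 in MUT. The ratio therefore chiefly follows that gene, whose deposited span was 1.59 times the annotated gene, and it is given as a description. The largest fall and the largest rises among the Hsp90 and Hsp70 co-chaperones were those of Ptges3 (p23), at 717 to 807 FPKM in WT but 246 to 282 FPKM in MUT and 186 to 219.9 in GcKO (-1.53 ± 0.16 and -1.92 ± 0.16, also called lower at the same sum), and of Sgta, at 2.1 to 3.71 FPKM in WT and 7.69 to 11 in MUT (1.41 ± 0.32, and 1.29 ± 0.32 in GcKO), and Fkbp5, an Hsp90-bound immunophilin, at 4.40 to 6.48 FPKM in WT and 13.5 to 15.8 in MUT (1.26 ± 0.22, and 1.27 ± 0.22 in GcKO). These calls had adjusted p-values of 2.32e-05 to 0.0116 with limma. Of the heat shock factors and small heat shock proteins, 6 of 11 were tested and Hsf5 was called, at -0.92 in MUT and -1.09 in GcKO, and 0.03 and -0.10 at the same sum.

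The AmcKO oocytes, from females whose genotype targets Dpagt1 in granulosa cells, gave 0 calls among the 55 members against WT with limma (all genes 0.214%). An unadjusted p under 0.05 was found for 10 of the 55 members and for 1754 of all 11233 genes. How far Dpagt1 was deleted in those granulosa cells was not measured in these oocyte libraries. The lowest p-values were those of Hsph1 and Dnajc5g given above. Set directly against AmcKO, GcKO oocytes had 4 members called lower (4.79% of all genes) and none higher, namely Dnajb4, Dnajc8, Dnajc14 and Hsp90aa1, and MUT oocytes had 3 called lower (5.07% of all genes), namely Dnajb4, Dnajc8 and Hsp90aa1. In GcKO against AmcKO, Dnajb4 was lower by -1.14 ± 0.19 (adjusted p = 0.00395, limma), Dnajc8 by -1.15 ± 0.18 (adjusted p = 0.00313), Dnajc14 by -0.79 ± 0.21 (adjusted p = 0.0428) and Hsp90aa1 by -0.73 ± 0.14 (adjusted p = 0.0102). At the same FPKM sum Dnajb4 alone kept this call (-0.40, adjusted p = 0.028), while Dnajc8 was at -0.42 (adjusted p = 0.0623), Dnajc14 at -0.07 and Hsp90aa1 at 0.02. In MUT against AmcKO all 3 calls were lost at the same sum, where Dnajb4 was at -0.27, Dnajc8 at -0.18 and Hsp90aa1 at -0.06, and with quantile normalization. These contrasts test the difference between the models' effects, and they share the AmcKO libraries. For the other 51 members no difference between GcKO and AmcKO was called on the deposited scale. At the same FPKM sum, 1 member was called lower and 10 higher in GcKO than in AmcKO (all 11233 genes: 128 and 2478). In MUT against AmcKO, 0 members were lower and 14 higher at that scaling (all genes: 165 and 2401).

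Markers of neighbouring cells moved with the groups too. Of 17 granulosa cell markers, Foxl2, Amh, Amhr2 and Wt1 were listed at 0 in all libraries. Above 0 in at least 1 library were 5 markers in WT, 12 in MUT, 11 in GcKO and 8 in AmcKO, but the summed FPKM of the list was highest in WT (166 to 174, against 57.2 to 83.0 for MUT, 63.4 to 108 for GcKO and 91.3 to 129 for AmcKO), most of it from Esr2. Inha was listed at 0 in WT and at 5.44, 1.13 and 5.44 FPKM in MUT, and Gja1 at 0 in WT and 3.30, 2.35 and 4.26 FPKM in MUT. The members called higher in MUT and not in GcKO, Dnajb1, Dnajb11 and Hspa4l, were highest in the same group, and the part of granulosa cell RNA in this was not tested. Markers of theca and stroma summed to at most 0.813 FPKM and those of blood to at most 1.12 FPKM, whereas all 15 oocyte markers were above 0 in every group. On the deposited scale the oocyte markers summed to 43582 to 48992 FPKM in WT and 33624 to 44043 in AmcKO. Their sum was lower in MUT (18681 to 19460) and GcKO (16938 to 24140), with Dppa3 the largest single part in each group. The mean of Dppa3 was 27933 FPKM in WT, 8421 in MUT and 9872 in GcKO. Not every marker went this way. Zar1 (119, 200 and 196 FPKM) and Nobox (51.4, 63.3 and 70.5 FPKM) alone had higher means than WT in both models, and Kit, Padi6 and Bmp15 in GcKO only.

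**Figure D5:**
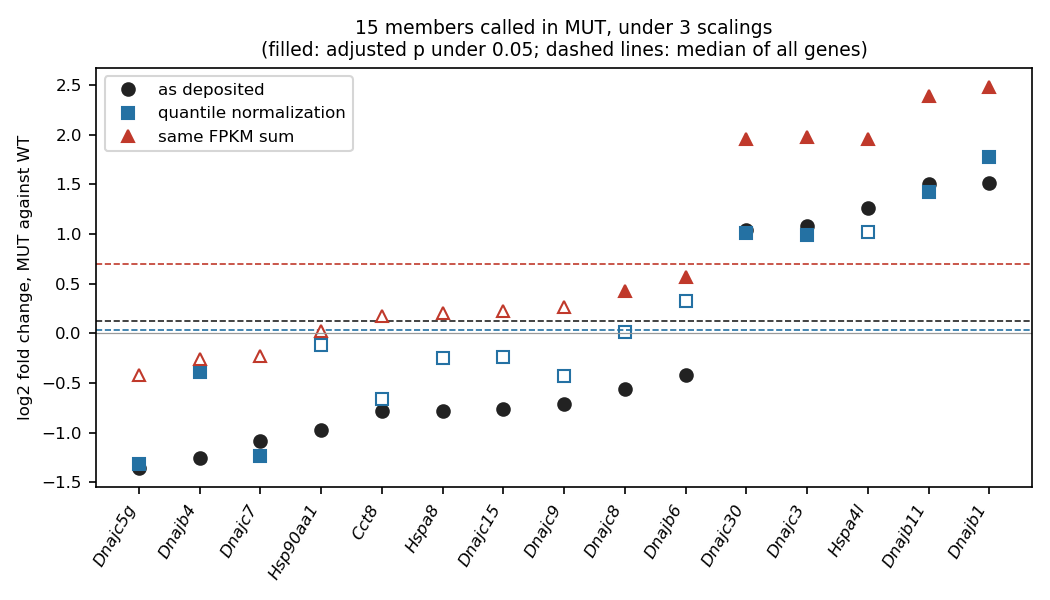
Log2 fold change of the 15 members called in MUT against WT, as deposited (circles), after quantile normalization (squares) and with all libraries set to the same FPKM sum (triangles). Filled symbols have an adjusted p under 0.05, and dashed lines give the median of all tested genes under each scaling (0.12, 0.03 and 0.70).

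The members split into those whose direction depended on the scaling and those whose direction did not. Called higher under all 4 scalings in MUT were Dnajb1, Dnajb11, Dnajc3 and Dnajc30, and in GcKO Dnajc11 and Hsp90ab1. Called lower under all 4 was Dnajb4 in GcKO. Relative to the median of all genes at the same sum, the 10 members called lower in MUT lay between -1.12 (Dnajc5g) and -0.13 (Dnajb6), and the 9 called lower in GcKO between -1.23 (Dnajc5g) and -0.42 (Dnajc9). The members that rose lay between 1.25 and 1.78 above that median in MUT and between 0.98 and 1.21 above it in GcKO. The members in these ranges were picked by their calls on the deposited scale, and taking off the median reverses part of the rescaling. The ranges are therefore a description and do not test whether a change outlasts the scaling.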

How the data were processed

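The 12 libraries of 20 GV oocytes were grouped by their labels, 3 to a group. According to the labels and the study's methods, the authors aligned reads of 150 nt to mm10 (TopHat2 2.0.13) and deposited FPKM values from Cufflinks 2.2.1, 1 column per library and 24255 genes. The gene annotation is not given in the sources used here. Columns with the authors' own comparisons (fold changes, p- and q-values) were not used. FPKM holds no counts, so the number of libraries, not depth, sets the precision given here.

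Members were matched by symbol, and the members, gene lists and tests were chosen with earlier results of these data known. limma 3.58.1 (R 4.3.3) was run on log2(FPKM + 1) with a variance trend and 4 group means (8 residual degrees of freedom) over the 11233 genes that reached 1 FPKM anywhere, in 6 contrasts. Benjamini-Hochberg adjustment ran over all of these genes, and a call is an adjusted p under 0.05. The pseudocount of 1 understates changes of low genes. Members under 1 FPKM were given exact permutation tests of 3 against 3 libraries. The code was tested on simulated data.

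Named were all Hsp70, Hsp110, Hsp90, TRiC and mitochondrial chaperonin genes above 0, the 4 largest rises and falls among called J-domain genes without overlap with WT in each contrast against WT, members called between models, the 3 most abundant J-domain genes, and the 3 largest rises and falls among called co-chaperones. Positions and shared 50-base stretches came from GENCODE (GRCm38), promoters from RefSeq (GRCm38.p6). Alternatives were another pseudocount (0.1), testing every gene or those averaging 5 FPKM or more, 3 other scalings (median of ratios, same sum, quantile), no trend, a fit of 2 groups, a minimum fold change of 2, a replicate block, and leaving out each library. Python 3.11.15, pandas 2.3.3, numpy 2.4.6 and matplotlib 3.10.9 were used.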

Additional observations from a re-analysis of the deposited data

Results flagged for a closer look

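On the deposited scale, the effects of the models against WT differed for 4 members, by the direct contrast of the models in limma. Dnajb4 was lower in GcKO than in AmcKO by a log2 difference of -1.14 (adjusted p = 0.00395) and lower in MUT than in AmcKO by -0.97 (adjusted p = 0.0085). It was lower in 3 of 3 libraries of either model than in any AmcKO library, and the MUT contrast lost its call without MUT replicate 2, MUT replicate 3 or AmcKO replicate 4. At the same FPKM sum the GcKO contrast was -0.40 (adjusted p = 0.028) and the MUT contrast -0.27 (adjusted p = 0.106), and with quantile normalization they were -0.49 (adjusted p = 0.0467) and -0.37 (adjusted p = 0.0888), so the MUT call was lost under both.

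Dnajc8 was lower in GcKO than in AmcKO by -1.15 (adjusted p = 0.00313) and in MUT by -0.88 (adjusted p = 0.0116), again in 3 of 3 libraries of each, and 2 of 6 fits without 1 library kept the MUT call. At the same FPKM sum both calls were lost, at -0.42 (adjusted p = 0.0623) and -0.18 (adjusted p = 0.393), and with quantile normalization the values were -0.78 (adjusted p = 0.0177) and -0.53 (adjusted p = 0.0619). Its AmcKO level was the one that stood above the mean of WT, by 0.32 (adjusted p = 0.42). Hsp90aa1 was lower in GcKO than in AmcKO by -0.73 (adjusted p = 0.0102) and in MUT by -0.76 (adjusted p = 0.00713), in 6 of 6 fits each, but by 0.02 and -0.06 at the same FPKM sum, without a call. Dnajc14 was lower in GcKO than in AmcKO by -0.79 (adjusted p = 0.0428), which was lost in all 6 fits without 1 library and was -0.07 at the same sum. With quantile normalization, Dnajc14 and both Hsp90aa1 contrasts were without a call.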

How the results depend on the processing

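Among members with a call, only the same-sum and quantile scalings turned directions. The median over the tested members, which is near 0, also changed sign without 1 library (MUT against WT -0.06 to 0.06, AmcKO against WT -0.02 to 0.11, GcKO against MUT -0.06 to 0.03) and was -0.24 in GcKO against WT among genes averaging 5 FPKM or more. With the same FPKM sum, the MUT against WT values became 0.17 for Cct8, 0.57 for Dnajb6, 0.22 for Dnajc15, 0.43 for Dnajc8, 0.27 for Dnajc9, 0.025 for Hsp90aa1 and 0.21 for Hspa8, the GcKO against WT values 0.27 for Cct8, 0.12 for Dnajc15, 0.20 for Dnajc8, 0.31 for Dnajc9, 0.10 for Hsp90aa1 and 0.16 for Hspa8, and Hsp90aa1 in GcKO against AmcKO 0.015. With quantile normalization, Dnajb6 became 0.32 and Dnajc8 0.011 in MUT. The cause was not tested. Members called lower in MUT, 10 as reported, were 5 with no filter, 0 with the same sum, 3 with quantile normalization, 6 without the trend, 3 over a fold change of 2 and 5 to 8 without 1 library. Members called higher in MUT, 5 as reported, were 25 with the same sum and 3 to 5 without 1 library. Members called lower in GcKO, 9 as reported, were 14 at a mean FPKM of at least 5, 1 with the same sum, 3 with quantile normalization, 5 with only the 2 groups, 3 over a fold change of 2 and 7 to 12 without 1 library. Members called higher in GcKO, 5 as reported, were 0 with no filter, 28 with the same sum, 0 with only the 2 groups, 0 over a fold change of 2 and 0 to 6 without 1 library, with 0 without GcKO replicate 1 or WT replicate 4 and 3 without GcKO replicate 3. The 4 called in GcKO against AmcKO were 11 with the same sum (1 lower and 10 higher), 2 with quantile normalization, 2 without the trend, 0 with only the 2 groups, 2 over a fold change of 2 and 3 without 1 library. The 3 called in MUT against AmcKO were 5 at a mean FPKM of at least 5, 14 with the same sum (all higher), 0 with quantile normalization, 1 without the trend, 0 over a fold change of 2 and 1 to 3 without 1 library, with 1 without MUT replicate 2 or AmcKO replicate 4. Median-of-ratios scaling and the pseudocount of 0.1 kept all 9 counts within 1.5 times. Same-numbered libraries did not deviate together (correlations of -0.04 to 0.04), so no shared deviation by number was seen. With 3 same-numbered pairs in a contrast, this cannot exclude that they were handled as pairs. With the replicate number as a block, 0 members were called in AmcKO against WT and 0 in GcKO against MUT, as without it. These fits called 0 of all 11233 tested genes as well, so they say nothing about the members. MUT and GcKO share no numbers with WT or AmcKO, so no block could be fitted between them. Depth is unknown, and 19 of the 55 tested members were under 1 FPKM in at least 1 library.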
